A study of Mus musculus with 5 samples.

Results

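The genes examined were 8 regulators of the step from G1 into S phase. They comprised the 4 genes of the INK4 group (Cdkn2a, Cdkn2b, Cdkn2c and Cdkn2d), the CIP/KIP gene Cdkn1b, and the 3 pocket protein genes Rb1, Rbl1 and Rbl2, which are substrates of the cyclin-dependent kinases and not inhibitors of them. They were chosen by gene, through the RefSeq accession that the array gives for each probe, and not by their values. This found 11 of the 41174 gene probes and 8 of the 18300 genes named through RefSeq. Cdkn1b, Rb1 and Rbl2 had 2 probes each. All 11 probes passed the filter, being well above background on at least 1 array by the scanner software's own call, and 9 of them were well above background on all 5 arrays.

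Gene expression was measured on 5 single-channel mouse oligonucleotide arrays, 1 for each of 5 cell states. ES was the embryonic stem cell line E14, grown with leukemia inhibitory factor. Hepa1-6 was a mouse hepatoma line, grown in medium with fetal calf serum. EHe was a hybrid line made by fusing the 2 lines, grown undifferentiated in the ES medium. By the study's methods the hybrids were near-tetraploid clones selected for the hygromycin resistance of the ES parent and the neomycin resistance of the Hepa1-6 parent. EHeD7 and EHeD14 were EHe cells after 7 and 14 days of differentiation. By the labels this took place as a monolayer on gelatin in serum-containing medium, whereas the study's methods describe embryoid bodies, so that the form of the culture is not settled here. With 1 array per cell state there was no replicate error, no test was possible, and the number of arrays limits the precision. Hepa1-6 was hybridized on a slide of its own and the other 4 cell states shared a slide, so that slide and Hepa1-6 cannot be told apart. The labels were set against marker genes. Of 8 ES cell markers found through RefSeq, 8 were well above background in ES and in each hybrid and 3 in Hepa1-6. Of 9 hepatocyte markers, 6 were well above background in Hepa1-6 and between 0 and 2 elsewhere, and in Hepa1-6 the defining markers Ttr, Apoa1 and Apoh were not. The summed signal of these markers was 202 times the 75th percentile of the array in Hepa1-6 and at most 0.25 times it elsewhere.

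As background, INK4 proteins bind the kinases CDK4 and CDK6 and keep them from pairing with D-type cyclins, while CIP/KIP proteins such as p27, the product of Cdkn1b, act on cyclin and kinase complexes, above all those of CDK2. Active kinases phosphorylate the pocket proteins, which then release E2F transcription factors and let S-phase genes be transcribed. Cdkn2a and Cdkn2b are neighbours, and the locus is known to be kept silent by Polycomb proteins in stem cells and to be induced under stress or oncogene activity. Cdkn2a encodes both p16INK4a and, from an upstream first exon and another reading frame, p19ARF, which stabilises p53.

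The start regions of the neighbours Cdkn2a and Cdkn2b are shown because these genes set Hepa1-6 apart from the other cell states, and that of Rbl1 because it carries the E2F motif next to its start. Each is the 250 bases before an annotated start, 5′ to 3′ along the gene, from RefSeq on build GRCm38.p6, and lies on the minus strand. The capitals mark matches to TTTNNCGC, a core E2F motif searched on both strands, with no overlap between matches. They lie at chr4:89294620-89294869 for the upstream start of Cdkn2a, chr4:89282193-89282442 for its downstream start, chr4:89311033-89311282 for Cdkn2b and chr2:157204535-157204784 for Rbl1.
Cdkn2a, upstream start: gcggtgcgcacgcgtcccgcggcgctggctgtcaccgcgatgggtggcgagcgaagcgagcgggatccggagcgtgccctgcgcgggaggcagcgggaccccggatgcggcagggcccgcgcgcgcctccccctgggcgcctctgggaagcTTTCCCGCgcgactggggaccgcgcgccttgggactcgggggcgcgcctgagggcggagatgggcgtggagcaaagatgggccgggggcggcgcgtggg
Cdkn2a, downstream start: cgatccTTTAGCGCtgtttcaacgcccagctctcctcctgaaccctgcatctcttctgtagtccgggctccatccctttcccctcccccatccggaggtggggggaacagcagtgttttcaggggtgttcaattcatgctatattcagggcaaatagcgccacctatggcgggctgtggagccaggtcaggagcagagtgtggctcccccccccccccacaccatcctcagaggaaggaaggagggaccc
Cdkn2b: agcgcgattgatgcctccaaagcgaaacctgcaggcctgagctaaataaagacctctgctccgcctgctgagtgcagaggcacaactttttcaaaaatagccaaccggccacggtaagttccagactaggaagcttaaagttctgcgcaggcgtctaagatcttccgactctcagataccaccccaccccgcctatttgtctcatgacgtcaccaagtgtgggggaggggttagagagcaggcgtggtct
Rbl1: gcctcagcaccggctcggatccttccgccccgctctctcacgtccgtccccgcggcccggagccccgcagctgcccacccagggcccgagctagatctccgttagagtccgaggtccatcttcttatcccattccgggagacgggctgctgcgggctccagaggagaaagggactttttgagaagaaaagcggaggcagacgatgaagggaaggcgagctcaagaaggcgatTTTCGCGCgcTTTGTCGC
The upstream start of Cdkn2a carried TTTCCCGC, beginning 99 bases before the start, within a window of 78.4% G and C that held 40 CpG dinucleotides. The downstream start had TTTAGCGC 244 bases before it and 7 CpG. Cdkn2b had no match in its window and 12 CpG, while Rbl1 had TTTCGCGC and TTTGTCGC at 18 and 8 bases before its start. Windows were found for 7 of the 8 genes, 9 windows in all, and 3 of the 9 held the motif, against 4.28% of 32841 windows of the same length over all genes in the table. The 3 windows belong to 2 genes, Cdkn2a and Rbl1. The motif itself holds a CpG, and the medians over all windows were 6 CpG and 52.4% G and C. The windows were not matched for base composition, and its part in the shares was not tested. The other windows, of Cdkn1b, Cdkn2c (2 starts), Cdkn2d and Rbl2, held no match. A match describes the letters and is not a binding site.

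**Figure D1:**
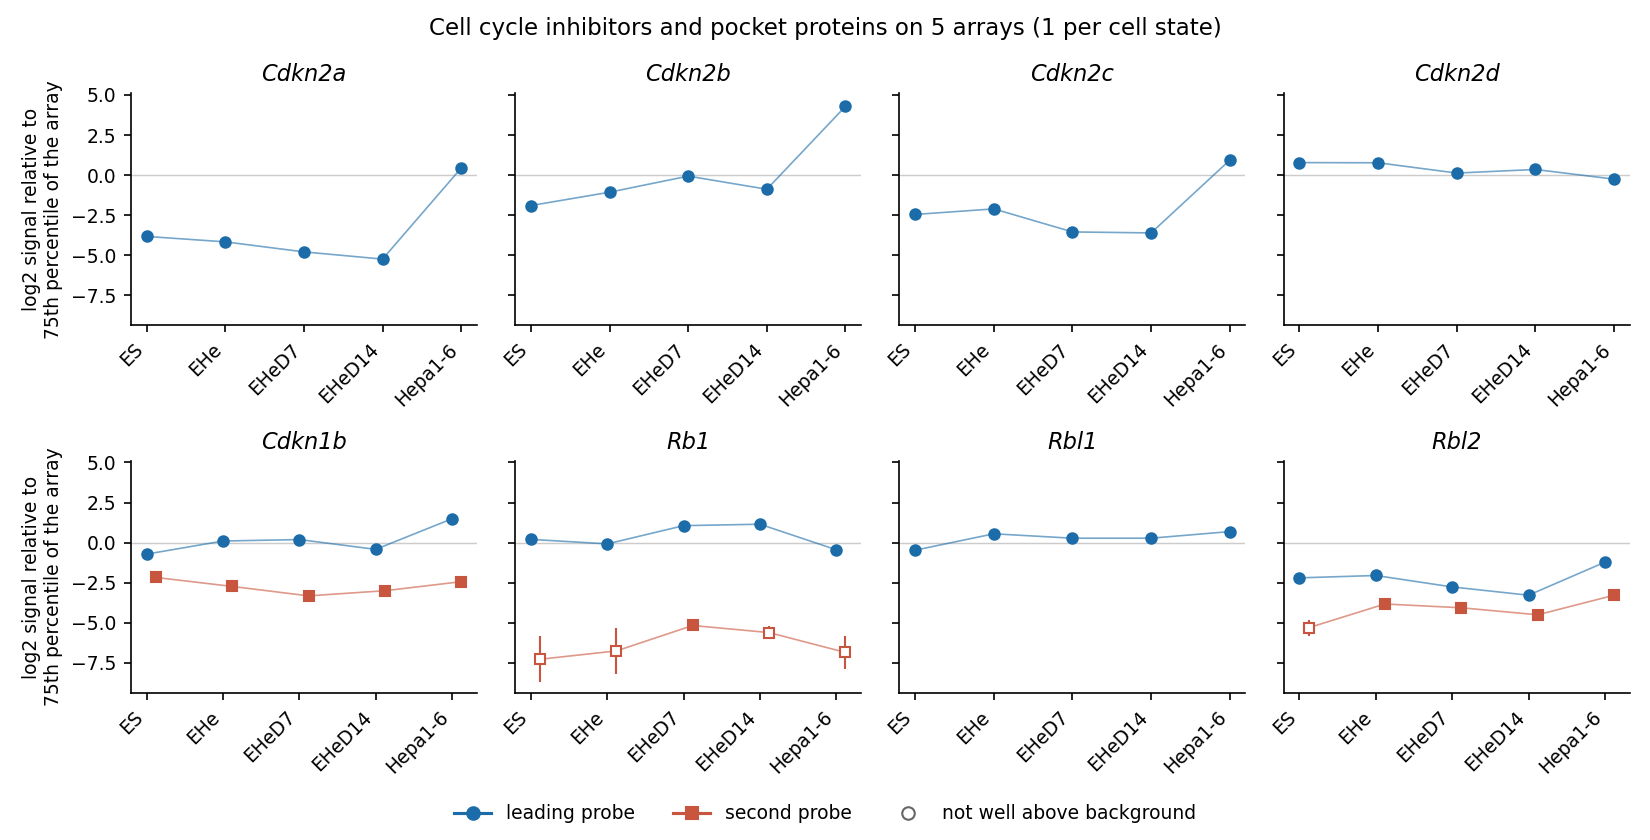
Level of each gene (log2 signal relative to the 75th percentile of the array) in ES, EHe, EHeD7, EHeD14 and Hepa1-6, 1 array each. Circles are the leading probe, squares the second probe, open symbols values not well above background, and bars the error on the array (scanner error), often smaller than the symbol. Cdkn2a, Cdkn2b and Cdkn2c stand highest in Hepa1-6, at 0.44, 4.29 and 0.93, and Rb1 is highest in EHeD7 and EHeD14, at 1.06 and 1.14.

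Of the 4 INK4 genes, 3 were far higher in Hepa1-6 than in ES or in any hybrid, and the undifferentiated hybrid was within 2-fold of ES for all 4. Levels below are log2 signals relative to the 75th percentile of the same array, read by the leading probe of a gene, which is the probe with the highest mean, and are compared only within a gene. Cdkn2a was -3.83 in ES and 0.44 in Hepa1-6, and in the hybrids -4.17 (EHe), -4.80 (EHeD7) and -5.25 (EHeD14). It was thus dim in every cell state but Hepa1-6, although well above background in all 5. Its probe was printed 10 times per array, and the SD between the spots used was 0.12, 0.11, 0.18, 0.14 and 0.17 in the same order, which measures spot noise within an array only. Cdkn2a was 19.3-fold higher in Hepa1-6 than in ES (log2 difference 4.27 ± 0.05, error from the spots) and 1.26-fold lower in EHe than in ES. The array assigns the probe to a RefSeq transcript record of the gene, and its sequence was not used here, so that p16INK4a and p19ARF transcripts were not told apart. The high Hepa1-6 level stands against the study's own RT-PCR. There, neither p16INK4a nor p19ARF was detected in Hepa1-6, and fusion with ES cells was reported to normalize both. Why the array and the RT-PCR differ was not settled here.

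Cdkn2b, which encodes p15INK4b, an inhibitor known to be induced by TGF-beta, was -1.90 in ES and 4.29 in Hepa1-6, and in the hybrids -1.07 (EHe), -0.07 (EHeD7) and -0.89 (EHeD14). This was the largest difference among the 8 genes, 73.3-fold between Hepa1-6 and ES (log2 difference 6.20 ± 0.21, scanner error, since the probe was printed as 1 spot). Cdkn2c, which encodes p18INK4c, was -2.46 in ES and 0.93 in Hepa1-6, and in the hybrids -2.11 (EHe), -3.55 (EHeD7) and -3.61 (EHeD14), or 10.5-fold higher in Hepa1-6 than in ES. EHeD7 and EHeD14 were the lowest for Cdkn2c and differed from each other by less than their error (-0.06 ± 0.23). Cdkn2d, which encodes p19INK4d and is separate from p19ARF, went the other way. It was 0.78 in ES and -0.26 in Hepa1-6, and in the hybrids 0.77 (EHe), 0.12 (EHeD7) and 0.35 (EHeD14). Its ES and EHe levels differed by less than their error (-0.01 ± 0.20), and Hepa1-6 was 2.05-fold below ES. The size of the latter depended on the scaling, with a log2 difference of -1.03 that became -0.25 with each array centred on its median.

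Cdkn1b gave different answers by its 2 probes. The leading probe was -0.72 in ES and 1.49 in Hepa1-6, and in the hybrids 0.09 (EHe), 0.19 (EHeD7) and -0.43 (EHeD14), or 4.62-fold higher in Hepa1-6 than in ES. The second probe, printed 10 times, was -2.18 in ES and -2.44 in Hepa1-6, and in the hybrids -2.74 (EHe), -3.33 (EHeD7) and -3.01 (EHeD14), which made Hepa1-6 1.20-fold lower than ES (log2 difference -0.26 ± 0.04 from the spots). The probes differed in sign in 4 of 7 comparisons, both carried the same RefSeq accession, and both were well above background on all 5 arrays. The higher Cdkn1b level in Hepa1-6 thus rested on the leading probe, and the mean of both probes put it at 0.97 on the log2 scale, within 3-fold.

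By their leading probes, the 3 pocket protein genes were within 3-fold between the parents. With each array centred on its median instead, Rbl1 (log2 difference 1.94) and Rbl2 (1.76) were past it. Rb1, the retinoblastoma tumor suppressor, was 0.20 in ES and -0.45 in Hepa1-6, and in the hybrids -0.08 (EHe), 1.06 (EHeD7) and 1.14 (EHeD14). Its 2 differentiated hybrid levels stood above the other 3 cell states, and over the 10 spots of the probe no spot of EHeD7 or EHeD14 reached down to a spot of another array. The spots repeat 1 probe on 1 array per cell state, so this shows small spot noise and not how far cultures of a state vary. The second Rb1 probe was well above background in EHeD7 only, at -5.18. Rbl1, which encodes p107, was -0.48 in ES and 0.68 in Hepa1-6, and in the hybrids 0.55 (EHe), 0.27 (EHeD7) and 0.27 (EHeD14). ES was the lowest, and EHe and Hepa1-6 differed by less than their error (-0.14 ± 0.20), though by -0.81 with each array centred on its median. Rbl2, which encodes p130, the pocket protein known for resting cells, was -2.21 in ES and -1.23 in Hepa1-6, and in the hybrids -2.06 (EHe), -2.77 (EHeD7) and -3.29 (EHeD14). ES and EHe differed by less than their error (0.15 ± 0.22). The second Rbl2 probe, dimmer and not well above background in ES, had the same sign as the leading probe in all 7 comparisons. By it Hepa1-6 was 4.08-fold above ES (log2 difference 2.03 ± 0.52, scanner error), a value that rests on the dim ES signal.

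**Figure D2:**
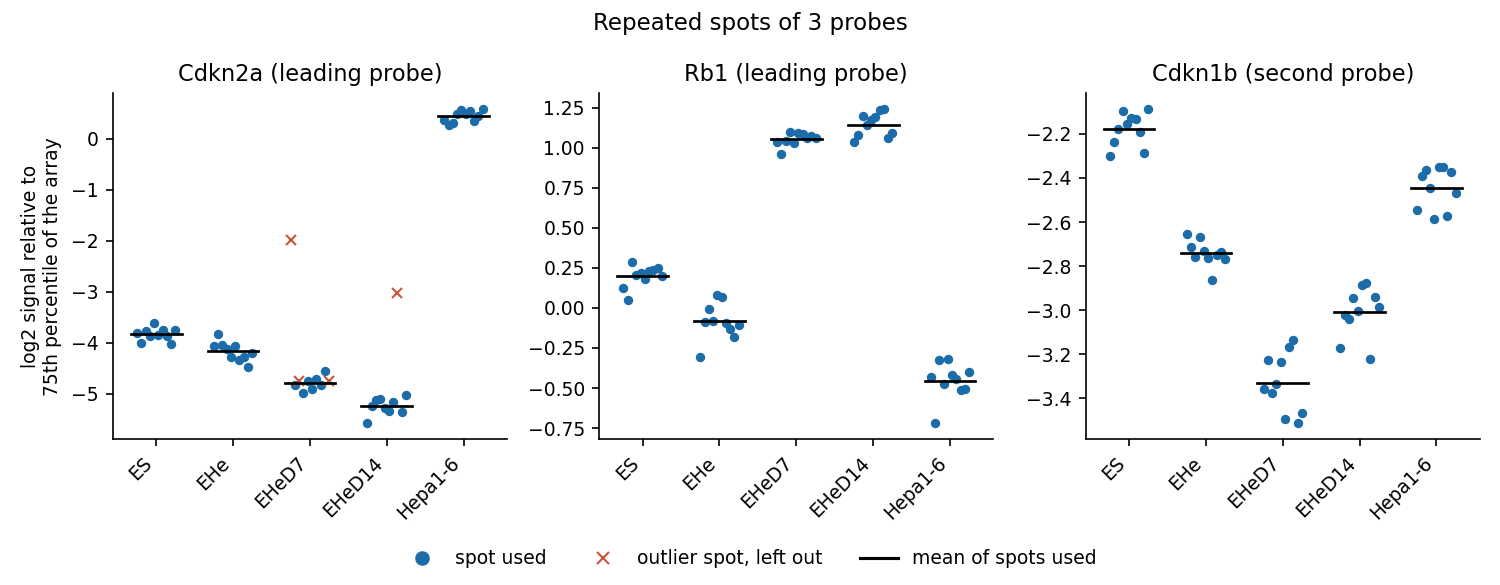
Log2 signal relative to the 75th percentile of the array for every spot of the 3 probes printed 10 times per array (Cdkn2a leading, Rb1 leading, Cdkn1b second), in 5 cell states. Dots are spots used, crosses outlier spots left out and lines the mean of the spots used. The mean of Cdkn2a stands at 0.44 in Hepa1-6 and at -3.83 or lower elsewhere, and 2 outlier spots, in EHeD7 and EHeD14, lie well above the others of their array.

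The first comparison was between the parent lines. Past 3-fold, 4 of the 8 genes were higher in Hepa1-6 than in ES, namely Cdkn2b, Cdkn2a, Cdkn2c and Cdkn1b, and 0 were lower. Over all 29921 probes kept, 14.3% were higher and 25.4% lower. The median of the 8 genes was 1.69 and that of all probes -0.40. The scaling bears on this comparison. Under median centring of the arrays, the all-probe median became 0.39, and the share of higher probes among those past 3-fold went from 36.1% to 60.0% (49.3% after quantile normalization). Cdkn2a, Cdkn2b, Cdkn2c and Cdkn1b stayed past 3-fold under both scalings. With median centring 6 genes were past it, Rbl1 and Rbl2 among them, whereas Rb1 changed from -0.65 to 0.13.

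The second comparison asked how far the hybrid had moved from its parents. Between EHe and ES, 0 of the 8 genes passed 3-fold, against 3.69% of all probes higher and 5.66% lower. The genes nearest to it were Rbl1, 2.03-fold higher in EHe, Cdkn2b, 1.78-fold higher, and Cdkn1b, 1.76-fold higher by the leading probe. Between EHe and Hepa1-6, Cdkn2b was 41.1-fold, Cdkn2a 24.4-fold and Cdkn2c 8.24-fold lower in EHe, so that 3 were lower and 0 higher, against 14.1% of all probes lower and 21.8% higher. The share of higher probes among those past 3-fold was 60.8% there and 39.7% with median centring (50.6% after quantile normalization). As a percentage of the log2 difference from ES to Hepa1-6, with ES at 0%, EHe lay at -7.90% for Cdkn2a, 10.3% for Cdkn2c, 13.4% for Cdkn2b and 37.0% for Cdkn1b. Set against the mean of the 2 parental signals, which an equal mix of both RNAs would give, EHe differed by -4.38 for Cdkn2b, -3.68 for Cdkn2a, -2.17 for Cdkn2c and -0.67 for Cdkn1b on the log2 scale.

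**Figure D3:**
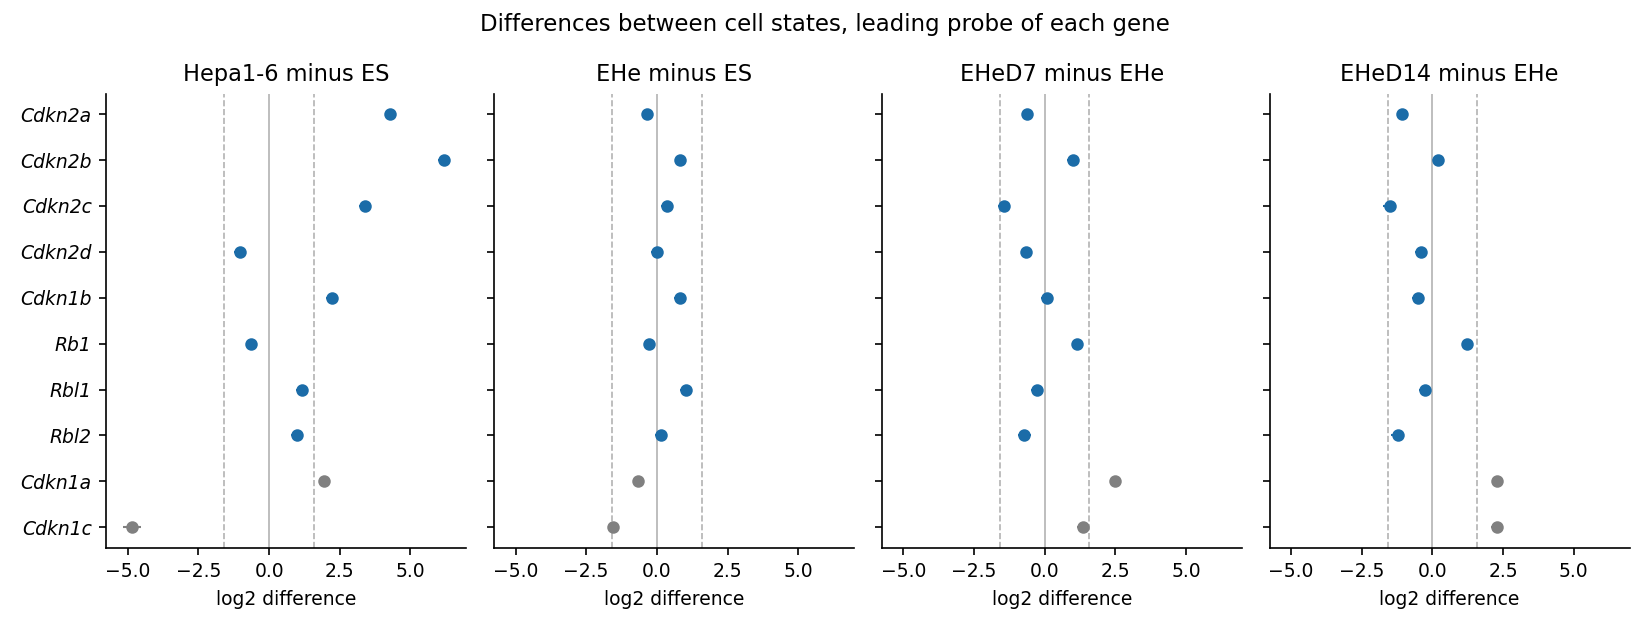
Log2 difference between cell states for the leading probe of the 8 genes (blue) and of Cdkn1a and Cdkn1c (grey), in 4 comparisons. Bars are the error on the arrays (spots or scanner) and dashed lines mark 3-fold. Cdkn2b, at 6.20, is farthest from 0 between Hepa1-6 and ES, and none of the 8 genes is past 3-fold in the other panels.

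On differentiation no gene of the 8 passed 3-fold, but Rb1 was higher and Cdkn2c and Rbl2 lower at both days. In EHeD7, 0 of 8 were past 3-fold from EHe, against 8.01% of all probes higher and 4.21% lower, and in EHeD14 again 0, against 8.21% and 4.65%. Median centring took the share of higher probes among those past 3-fold in EHeD7 from 65.5% to 55.5%. Rb1 was 2.20-fold higher in EHeD7 (log2 difference 1.14 ± 0.04 from the spots) and 2.34-fold higher in EHeD14 (1.23 ± 0.04). Cdkn2c was 2.71-fold lower in EHeD7 (-1.44 ± 0.22, scanner error) and 2.83-fold lower in EHeD14 (-1.50 ± 0.23), just inside the threshold, and it passed 3-fold with quantile normalization or median centring, while normexp gave a smaller difference, -0.99 in EHeD14. Rbl2 was 1.64-fold and then 2.35-fold lower by the leading probe, and its second probe was 1.18-fold and 1.60-fold lower. Cdkn2b differed between the days. It was 2.01-fold higher than EHe in EHeD7 and 1.14-fold higher in EHeD14, the latter within its error (0.19 ± 0.21). Cdkn2a was 1.54-fold lower in EHeD7 and lower still in EHeD14 (log2 difference -1.08 ± 0.08, and -0.45 with normexp).

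On the Cdkn2a probe, 3 spots of EHeD7 and 1 of EHeD14 had been called outliers and were left out. With them kept, Cdkn2a in EHeD7 and EHeD14 differed from EHe by -0.34 and -0.85, so that the direction held and the size did not. Cdkn2d was 1.56-fold and 1.34-fold lower than EHe, and Rbl1 1.21-fold lower at both days. Cdkn1b was within its error in EHeD7 (0.09 ± 0.20) and 1.43-fold lower in EHeD14 by the leading probe. Between the days themselves 0 of 8 genes passed 3-fold, against 1.23% of probes higher and 1.43% lower.

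After 14 days the hybrid stood farther from Hepa1-6 than before for Cdkn2a and Cdkn2c, and at nearly the same distance for Cdkn2b. Between EHeD14 and Hepa1-6, 5 genes were lower past 3-fold in EHeD14 and 1 higher, against 12.7% and 22.1% of all probes. Cdkn2a was 51.5-fold, Cdkn2b 36.2-fold, Cdkn2c 23.3-fold, Rbl2 4.17-fold and Cdkn1b 3.76-fold lower. With normexp the log2 difference went from -5.69 to -3.87 for Cdkn2a and from -4.54 to -3.59 for Cdkn2c, and the mean of both probes put Cdkn1b within 3-fold (-1.24). Rb1 was 3.03-fold higher, a value that fell within 3-fold with normexp (1.52 on the log2 scale), quantile normalization (1.57), median centring (0.77) or the mean of both probes (1.42). For all probes, median centring took the share of higher ones among those past 3-fold from 63.4% to 36.8% (51.6% after quantile normalization). On the scale from ES to Hepa1-6, EHeD14 lay at -33.1% for Cdkn2a and -34.0% for Cdkn2c, beyond ES, and at 16.4% for Cdkn2b and 13.5% for Cdkn1b.

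The summed signals of fibroblast and trophoblast markers were higher in EHeD7 and EHeD14 than in EHe, and their part in these differences was not tested. Of 8 fibroblast markers, 8 were well above background in EHeD7 and EHeD14 and 5 in EHe, and their summed signal, in multiples of the 75th percentile, was 5.29, 5.71 and 1.21 in that order. In Hepa1-6 it was 0.26. Of 8 trophoblast markers, 4 were well above background in EHe, 8 in EHeD7, 7 in EHeD14 (not Elf5) and 3 in Hepa1-6, where Cdx2, Elf5, Gata3, Tfap2c and Hand1 were not. Their summed signal was 388 in Hepa1-6, and in the hybrids 11.1 (EHe), 73.2 (EHeD7) and 104 (EHeD14). The keratin genes Krt8 and Krt18 made up most of that sum in EHeD7, EHeD14 and Hepa1-6. They stood at 5.64 and 5.61 in EHeD14 and at 7.49 and 7.67 in Hepa1-6 on the log2 scale. In EHe they stood at -0.65 and -0.96, and Tfap2c, at 3.29, made up most of the sum. Tfap2c was 13.9-fold lower in EHeD7 and 34.9-fold lower in EHeD14 than in EHe. The summed signal of the ES cell markers was 399 in EHe, 249 in EHeD7 and 144 in EHeD14. Dppa5a made up the largest part of it, at 7.86, 7.58 and 6.59 on the log2 scale in that order. Past 3-fold, 4 of the 8 markers were lower in EHeD14 than in EHe and 0 higher, against 4.65% and 8.21% of all probes. The markers did not all fall, since Pou5f1 was 1.10-fold and Utf1 1.61-fold higher in EHeD14 than in EHe. In whole cultures such as these, fewer cells of a type and less RNA per cell cannot be told apart.

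The other 2 CIP/KIP inhibitors were higher in both differentiated hybrids than in EHe. Cdkn1a, which encodes p21, the main p53-induced inhibitor, was 1.33 in ES and 3.29 in Hepa1-6, and in the hybrids 0.66 (EHe), 3.16 (EHeD7) and 2.93 (EHeD14). It was 5.65-fold higher than EHe in EHeD7, past 3-fold under every scaling tried, and on the scale from ES to Hepa1-6 it lay at 93.4% in EHeD7 and 81.7% in EHeD14. Cdkn1c, an imprinted gene that encodes p57, was -0.08 in ES and -4.94 in Hepa1-6, and in the hybrids -1.62 (EHe), -0.27 (EHeD7) and 0.68 (EHeD14). EHeD14 was its highest level, 4.92-fold above EHe, and Hepa1-6 its lowest, 29.0-fold below ES (7.63-fold with normexp, 17.3-fold with quantile normalization and 16.8-fold with median centring).

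**Figure D4:**
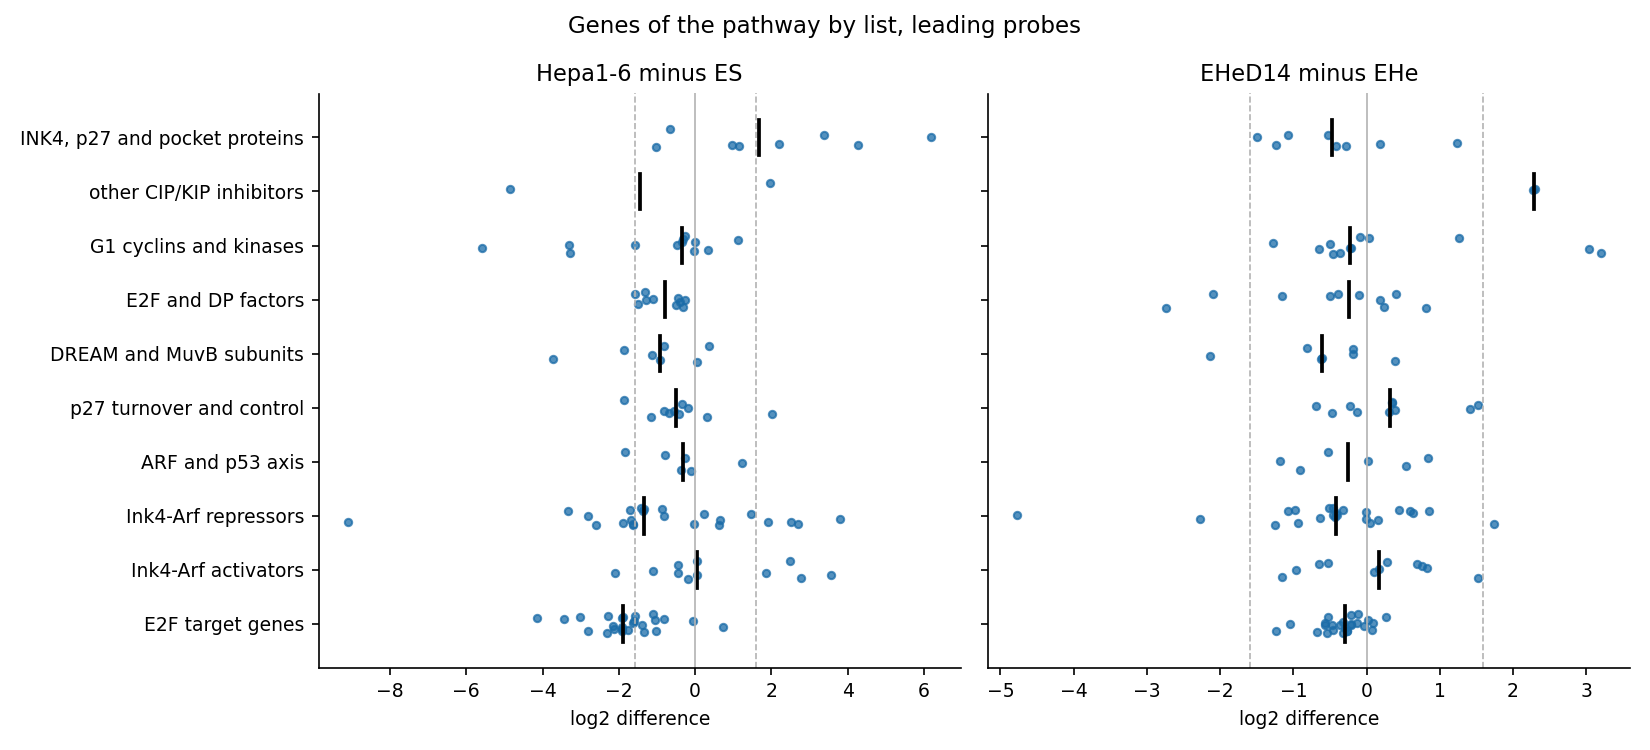
Log2 difference of each gene (dots, leading probe) in lists of the pathway, for Hepa1-6 minus ES and for EHeD14 minus EHe. Black bars are list medians and dashed lines mark 3-fold. Of the 25 E2F target genes, 24 lie to the left of 0 between Hepa1-6 and ES, with a list median of -1.90, and all lie within 3-fold between EHeD14 and EHe, with a median of -0.30.

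The kinases that INK4 proteins bind behaved differently from each other. Cdk4 was 4.18 in ES and 4.19 in Hepa1-6, and in the hybrids 4.34 (EHe), 3.86 (EHeD7) and 4.12 (EHeD14), and was named after its values were seen. Cdk6 was -0.36 in ES and -0.02 in Hepa1-6, and in the hybrids -2.43 (EHe), 0.07 (EHeD7) and 0.77 (EHeD14). By this leading probe EHe was the low point for Cdk6, 4.18-fold below ES, and EHeD14 stood 9.16-fold above EHe. The study's own supplementary table also had EHe lowest for Cdk6, but put ES and every hybrid below Hepa1-6. That difference was not settled here. Of 13 G1 cyclins and kinases listed, 12 were found through RefSeq. Among these 12, Cdk6 and the D-type cyclin gene Ccnd2 (8.21-fold) were higher past 3-fold in EHeD14 than in EHe. None of them was lower past it, and the list median was -0.22. Of all probes, 8.21% were higher and 4.65% lower. Between Hepa1-6 and ES 4 of the 12 were lower past 3-fold and 0 higher, against 25.4% and 14.3% of all probes. Among the 4 were Ccnd2 (at least 14.4-fold, since it was not well above background in Hepa1-6), Ccnd3 (9.98-fold) and Ccne1 (9.74-fold). The D-type cyclin gene Ccnd1 was not among the 12, and the study's own supplementary table put it higher in Hepa1-6 than in ES. With median centring 3 were lower and 1 higher, and the list median turned from -0.33 to 0.45.

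Downstream of the pocket proteins, E2F target genes were lower in Hepa1-6 than in ES. Of 25 measured, 17 were lower past 3-fold and 0 higher, against 25.4% and 14.3% of all probes, with a median of -1.90 against -0.40 for all probes. Orc1 (17.7-fold lower) and Mcm5 (10.8-fold), which license replication origins, and the spindle checkpoint gene Bub1b (8.10-fold) differed most. With median centring 4 of the 25 were lower past 3-fold and 0 higher, against 15.6% and 23.5% of all probes, so the count lower was near the all-probe share. The list median was then -1.12, against 0.39 for all probes. Between EHe and its differentiated states 0 of 25 passed 3-fold, with medians of -0.38 in EHeD7 and -0.30 in EHeD14. Of all probes, 8.01% were higher and 4.21% lower in EHeD7, and 8.21% and 4.65% in EHeD14. Of 10 E2F and DP genes, E2f2, an activator, was 6.66-fold and E2f8, a repressor, 4.29-fold lower in EHeD14 than in EHe, and 0 were higher past 3-fold. E2f8 had been 4.09-fold higher in EHe than in ES. A list of 7 genes covered the DREAM complex, which works with p130 and p107, and MuvB complexes without them. Mybl2, of the latter, was 4.39-fold lower in EHeD14 than in EHe and 13.3-fold lower in Hepa1-6 than in ES.

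Known repressors of the Cdkn2a and Cdkn2b locus, mostly Polycomb subunits, differed in both directions. Of 23, 4 were higher and 9 lower past 3-fold in Hepa1-6 than in ES, against 14.3% and 25.4% of all probes, with a median of -1.34 (5 higher and 4 lower with median centring). The Polycomb gene Cbx7 was at least 137-fold lower in Hepa1-6, where it was not well above background, and Phc1 10.0-fold lower, while Phc3 was 6.43-fold and Id1 5.68-fold higher. The replication gene Cdc6, which is also an E2F target, was 6.95-fold lower. In EHeD14 against EHe, the transcription factor gene Tbx3 was 27.3-fold and Bmi1 4.85-fold lower and the transcription factor gene Twist1 3.33-fold higher, and Twist1 did not pass 3-fold with normexp or median centring. Bmi1, a Polycomb subunit known to silence the locus, was -2.16 in ES and -0.68 in Hepa1-6, and in the hybrids -0.70 (EHe), -3.09 (EHeD7) and -2.97 (EHeD14), with EHe and Hepa1-6 the highest. Of 11 known activators, the ETS factor gene Ets1 (11.9-fold), the TGF-beta signal transducer gene Smad3 (6.89-fold) and Ets2 (5.65-fold) were among 4 higher in Hepa1-6 than in ES. The chromatin remodelling gene Smarcb1 was 4.27-fold lower. In EHeD14 against EHe, 0 of the 11 passed 3-fold, beside 8.21% of all probes higher and 4.65% lower.

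Genes with the most similar profile over the 5 arrays were looked up for the genes among the 8 that spanned more than 2 on the log2 scale, by root mean square distance between profiles centred on their mean, among 15413 genes, with values below the detection limit of an array set to it. For Cdkn2a these were Olfml3 (0.21), C1s1 (0.21) and Krt5 (0.26), and for Cdkn2b Aox1 (0.15), Cyp1a1 (0.16) and Creb5 (0.23), each well above background on 3 arrays, so that these distances rest in part on the detection limit. For Cdkn2c they were Chst8 (0.13), Aldh1l2 (0.19) and Nmnat3 (0.20). For Cdkn1b they were Cfap69 (0.08), Trim10 (0.16) and Dop1a (0.17), and for Rbl2 Mphosph9 (0.09), 9130023H24Rik (0.11) and Acap3 (0.14). The distances describe 5 single arrays.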

How the data were processed

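RNA of 5 cell states was read on Agilent mouse arrays with 1 array each. The dye is Cy3 in the labels but Cy5 in the study's methods. The authors deposited a table of 45018 spots per array from Agilent Feature Extraction 10.7.3.1 (version per the file headers), and the values used were its processed signal intensity, corrected for background in the scanner software and not normalized between arrays. Its 0 or 1 calls, deposited as other columns, marked outlier spots and spots well above background. The deposited series table held the same intensity values. How the software's settings were chosen is not given in the sources used here.

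Control spots and outlier spots (73 to 174 per array) were left out. Saturation was called for 0 spots. The log2 of each signal was taken relative to the array's 75th percentile, and spots of a probe were averaged. Of 41174 probes, 29921 were well above background on at least 1 array (for a probe with several spots, on at least 50% of them) and were kept, and 110 had no value on an array. Accessions named 26888 probes through RefSeq, and 14286 stayed unnamed. The error of a level is the scanner's own error for a spot, or SD over the square root of the number of spots where at least 5 were used. Differences past 3-fold were counted without a test. Where a probe was not well above background on 1 side and lay below the detection limit there, that limit was used and gives a bound ("at least").

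The 8 genes, the gene lists and the comparisons were chosen with earlier results of these data known. Named were the 8 genes, Cdkn1a, Cdkn1c and, per list and comparison, up to 3 genes with the largest rise and 3 with the largest fall past 3-fold. A gene of the repressor list that this rule names is not reported here. Alternatives were limma's normexp background correction (offset 50) on the median spot signal, since the mean signal was not used here, quantile normalization, median centring, dim values raised to the detection limit, the mean of a gene's probes, the series table, a 2-fold threshold, no filter or all 5 arrays, and, added after the values were seen, outlier spots kept. The counting was tested on simulated data. Versions were R 4.3.3 with limma 3.58.1, and Python 3.11.15 with pandas 2.3.3, numpy 2.4.6 and matplotlib 3.10.9.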

Additional observations from a re-analysis of the deposited data

How the results depend on the processing

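Of the counts of the 8 genes past 3-fold in 7 comparisons, 62 values under the alternatives stayed within 1.5 times the reported count and 8 did not. Some of the 62 were fixed in advance. The series table held the same values, and the leading probes were well above background on all 5 arrays. The series table, raised dim values, no filter and all 5 arrays thus could not change a count, and each gave 7 of the 62. At 2-fold, 1 gene passed between EHe and ES, 5 between EHe and Hepa1-6, 3 between EHeD7 and EHe and 4 between EHeD14 and EHe. The share of all probes past 2-fold was not computed, so these counts have no background to be read against. With quantile normalization, and again with each array centred on its median, 1 gene, Cdkn2c, passed 3-fold in EHeD7 and 1 in EHeD14 against EHe, where the reported count was 0. The cause was not tested. Of the differences of single genes, 312 values moved by less than 0.16 on the log2 scale and 80 by more, and 0 of the differences past 3-fold turned their sign. The series table and the raised dim values gave 56 each of the 312 and could not move a value. Likewise, the mean of probes could not move a gene with 1 probe, nor the kept outliers a probe with 1 spot. Of the smaller differences 10 did under at least 1 alternative, among them Rb1 between Hepa1-6 and ES. Normexp took Cdkn2a between Hepa1-6 and ES from 4.27 to 3.17.

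Counts over all probes moved more. With normexp, probes higher and lower went from 1103 and 1693 to 230 and 393 for EHe minus ES, from 4282 and 7589 to 2504 and 3385 for Hepa1-6 minus ES, from 6515 and 4204 to 3062 and 2658 for EHe minus Hepa1-6, from 2397 and 1261 to 899 and 496 for EHeD7 minus EHe, from 2458 and 1392 to 950 and 608 for EHeD14 minus EHe, from 368 and 428 to 36 and 42 for EHeD14 minus EHeD7, and from 6604 and 3807 to 2879 and 2372 for EHeD14 minus Hepa1-6. Median centring gave 7029 and 4680 for Hepa1-6 minus ES. Dim signals limit the second Rb1 probe and the ES value of the second Rbl2 probe. No paired analysis was possible because each cell state had 1 array, and leaving out an array would have left a cell state with none.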

Other observations

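Genes of p27 turnover and control and genes of the ARF and p53 axis, which acts downstream of p19ARF, were counted in the same way. Of all probes, 14.3% were higher and 25.4% lower past 3-fold in Hepa1-6 than in ES. Against EHe the shares were 8.01% and 4.21% in EHeD7, and 8.21% and 4.65% in EHeD14. Lists of 10 and 6 genes are too short to tell their counts from these shares. Of 10 measured genes of p27 turnover and control, 1 was higher (Uhmk1, at least 2.63-fold once set against the detection limit, so not past 3-fold by that bound) and 1 lower (Foxo3, not well above background in either line) in Hepa1-6 than in ES, and 0 in EHeD7 or EHeD14 against EHe. Of 6 measured genes of the ARF and p53 axis, Trp53, which encodes p53, was 3.59-fold lower in Hepa1-6 than in ES, a difference that was within 3-fold with median centring, and 0 passed 3-fold in EHeD7 or EHeD14 against EHe.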
